A study of Mus musculus with 6 samples.

Results

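The genes of blood clotting, its inhibitors and the dissolution of clots were compared between the livers of 2 inbred mouse strains. They comprise 35 listed genes of the clotting factors, fibrinogen, the contact system, the vitamin K cycle, the anticoagulants and fibrinolysis. All probe sets that the array's annotation pairs with one of these symbols were taken, which gave 44 of 45037 probe sets. They stood for 33 of the 35 genes, out of 18193 genes measured in all, 25 of them with 1 probe set and 8 with several, and Kng2 and Cpb2 were not analysed here. The animals were 3 females of strain NZB/BinJ (NZB), set against 3 females of strain SM/J (SM). All 6 mice were untreated, 8 weeks old and came from the Jackson Laboratory. They ate chow, went without food for 4 hours and had their livers perfused with 50 mL of saline before total RNA was taken, 1 array to a mouse. No allele, transgene or treatment distinguishes the mice beyond their strain.

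Most clotting factors are made by hepatocytes and released into the blood as inactive precursors. Tissue factor with factor VII, or the contact system through factors XII and XI, sets off a cascade that ends in thrombin, which turns fibrinogen into fibrin. Antithrombin and related serpins, the protein C pathway and tissue factor pathway inhibitor restrain it, and plasmin dissolves the clot. Several factors work only after gamma-glutamyl carboxylase, with vitamin K as cofactor, has modified the glutamates of their Gla domain. Von Willebrand factor, thrombomodulin and most factor VIII come from endothelium, and factor XIII A chains from macrophages and megakaryocytes.

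Values are log2 expression, and each difference is NZB minus SM with the standard error (SE) of the limma fit. A gene is represented by its brightest probe set and is called higher or lower where the Benjamini-Hochberg adjusted p over all 18193 genes fell under 0.05. Array medians lay between 6.60 and 6.66. The replicate arrays of a strain correlated at 0.995 to 0.997 (Pearson's r over all probe sets). Arrays of different strains, which are no replicates of each other, correlated at 0.985 to 0.987. As a mark of background, the highest of 54 readings from the 9 probe sets of the Y-linked genes Eif2s3y, Kdm5d and Uty in these females was 5.67. The array of SM replicate 2 read 7.32 for Xist, the RNA of the inactive X chromosome, against 12.6 to 12.7 on the NZB arrays and 12.8 and 12.9 on the other SM arrays, so results are also given without it. Of 9 measured hepatocyte markers, albumin, transthyretin and apolipoproteins among them, none lay under background on all arrays, and Tat and Pck1 (2 genes) were lower in NZB (1 of them without NZB replicate 2, SM replicate 1 or SM replicate 2). Over all genes 8.47% were higher and 12.6% lower. The linear sum of these markers was 168516 to 175251 in NZB and 177606 to 182917 in SM, and its part in the results was not tested. In whole liver, fewer cells of a type and less RNA per cell cannot be told apart.

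Among the 33 measured coagulation genes, 4 were higher in NZB, 3 lower, and the other 26 stayed short of the threshold. The 7 calls are 21.2%, beside 21.0% of all genes tested (8.47% higher and 12.6% lower), so the share of calls is near the background and is not a result about coagulation genes. Those higher were Ggcx, F11, Serpina10 and F13a1, and those lower were Vwf, F3 and F12. Without SM replicate 2 the calls were 3 higher and 2 lower, and without NZB replicate 3 they were 3 higher and 1 lower. The median difference was 0.068, beside 0.021 over all genes, and the median size of a difference was 0.14, beside 0.12. Only Ggcx, 1 of the 33, reached 2-fold, and 26 genes differed by under 0.2 in size. The arrays of the strains did not overlap for 22 of the 33 genes (16 with NZB above SM and 6 with NZB below), beside 39.4% of all genes, and 15 of these 22 did not pass the test. The standard deviation within a strain ran from 0.0078 to 0.27 over the genes, with a median of 0.065 in NZB and 0.052 in SM.

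**Figure D1:**
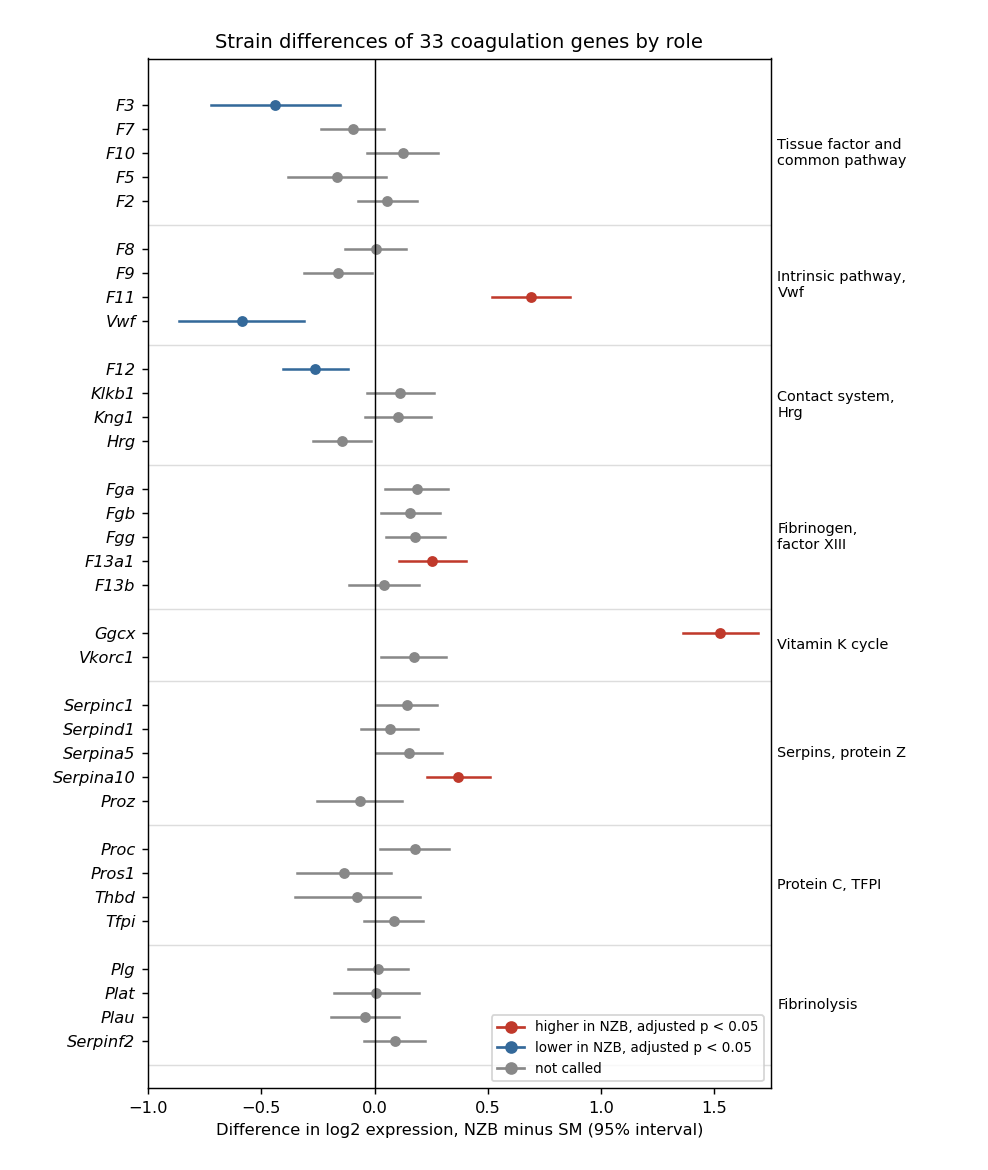
Difference in log2 expression, NZB minus SM, for the 33 measured genes grouped by role, with 1 row per gene. Points are limma estimates and lines their 95% intervals. Ggcx lies apart at 1.53, and most other genes lie within 0.2 of 0.

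The vitamin K cycle held the largest difference. Ggcx encodes gamma-glutamyl carboxylase, the enzyme that modifies the Gla domains. Its brighter probe set read 9.94, 9.92 and 9.93 in NZB livers, against 8.35, 8.55 and 8.30 in SM livers. The strains lay far apart, and the 3 NZB arrays were nearly equal. The gene was 2.88-fold higher in NZB (1.53, SE 0.074, adjusted p = 3.1e-06), and the difference was 1.48 to 1.60 with any 1 array left out. The dimmer probe set of the gene read 8.70, 8.62 and 8.60 in NZB and 8.46, 8.50 and 8.51 in SM. Here too the NZB arrays were all above the SM arrays, but the difference was 0.15 (SE 0.060) and did not pass over all probe sets (adjusted p = 0.137). The brighter set therefore differed by 1.38 more between the strains than the dimmer one. An exact permutation test of that gap, two-sided, gave p = 0.1, the smallest that 3 arrays against 3 can give, as it did for all 4 such gaps tested, which were chosen after their values were seen. The mean of both probe sets differed by 0.84. Strain variants under the probes were not analysed here, so which of the probe sets follows the level of the transcript was not tested.

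The 250 bases before the RefSeq start of Ggcx are shown because the gene differed most. This and the following promoter sequences are from RefSeq (GRCm38.p6), the reference genome and not that of NZB or SM. They are written 5′ to 3′ on the gene's strand, and capitals mark matches, on either strand, to TTGCNNAA (bound by C/EBP factors), CAAAGT (the core of HNF4 sites), GTTAAT (part of an HNF1 site) and TTCNNNGAA (bound by STAT factors), motifs chosen with the results known.
Ggcx (chr6:72414058-72414307, plus strand): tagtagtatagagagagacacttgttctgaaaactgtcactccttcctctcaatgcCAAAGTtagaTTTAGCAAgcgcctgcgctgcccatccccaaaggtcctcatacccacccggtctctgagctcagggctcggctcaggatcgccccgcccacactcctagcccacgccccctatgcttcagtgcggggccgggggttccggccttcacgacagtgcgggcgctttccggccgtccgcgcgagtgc
A C/EBP match begins 184 bases before the start and an HNF4 core match begins 194 bases before it.

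Vkorc1, whose product recycles vitamin K and is the target of warfarin, read 13.13, 13.03 and 13.10 in NZB against 12.87, 12.88 and 12.99 in SM. The arrays did not overlap, by a narrow margin, and the difference of 0.17 (SE 0.064) did not pass (adjusted p = 0.0885). Its paralogue Vkorc1l1, no member of the group, went the other way and fell 1.36-fold in NZB relative to SM (-0.45, SE 0.075, adjusted p = 0.0033).

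By the brightest probe set of each gene, none of the 7 Gla proteins that the carboxylase modifies here (F2, F7, F9, F10, Proc, Pros1 and Proz) passed the test, and their differences ran from -0.16 to 0.18 with a median of -0.066. The 95% intervals of these 7 differences lay between -0.34 and 0.33. The dimmer probe set of Proz was higher in NZB, however (0.46, 95% interval 0.18 to 0.74, adjusted p = 0.0355 over all probe sets), beyond that range. The difference of the brighter Ggcx set lay outside the 7 intervals. That of the dimmer Ggcx set, 0.15, lay within the intervals of F2, F10 and Proc and above those of F7, F9, Pros1 and Proz.

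Among the intrinsic pathway genes, F11 differed most. Factor XI is the protease that factor XIIa or thrombin activates and that in turn activates factor IX. F11 read 10.7, 10.5 and 10.7 in NZB, against 9.89, 10.1 and 9.88 in SM. All NZB arrays were above all SM arrays. The gene was 1.62-fold higher in NZB (0.69, SE 0.077, adjusted p = 0.000357), a call kept under all 14 alternative settings. Klkb1 encodes plasma prekallikrein, a close relative of factor XI, and is its next neighbour among the protein-coding genes of chromosome 8. It read 12.1, 11.9 and 12.1 in NZB against 11.9, 11.9 and 11.9 in SM, with overlapping arrays. Its difference was 0.11 (SE 0.066, adjusted p = 0.258, 95% interval -0.035 to 0.26). The difference of F11 exceeded that of Klkb1 by 0.58 (exact permutation test, two-sided p = 0.1). The promoters of this pair of neighbours are shown because the genes are adjacent relatives with different values.
F11 (chr8:45262032-45262281, minus strand): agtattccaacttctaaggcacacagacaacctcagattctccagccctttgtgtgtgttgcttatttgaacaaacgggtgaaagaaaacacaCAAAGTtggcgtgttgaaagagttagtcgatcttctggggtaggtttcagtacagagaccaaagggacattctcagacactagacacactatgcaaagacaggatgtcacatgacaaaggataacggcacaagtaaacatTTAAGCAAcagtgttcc
Klkb1 (chr8:45294836-45295085, minus strand): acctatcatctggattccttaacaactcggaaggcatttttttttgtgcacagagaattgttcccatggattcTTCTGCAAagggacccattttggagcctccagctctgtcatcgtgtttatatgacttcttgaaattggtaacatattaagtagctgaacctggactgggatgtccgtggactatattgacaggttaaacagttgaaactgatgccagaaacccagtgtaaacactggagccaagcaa
Both hold a C/EBP match, 17 bases before the start in F11 and 177 bases before it in Klkb1, and F11 also holds an HNF4 core match at 157 bases.

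F9, the Gla protease that factor XI activates, read 11.8, 11.7 and 11.7 in NZB against 11.9, 11.9 and 11.9 in SM. The NZB arrays were below the SM arrays, but the difference of -0.16 (SE 0.067) did not pass (adjusted p = 0.119). F8, the cofactor of factor IX, read 7.68, 7.75 and 7.66 in NZB against 7.72, 7.69 and 7.65 in SM. The strains could not be separated (0.0051, SE 0.060, 95% interval -0.13 to 0.14).

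Vwf encodes the endothelial and platelet protein that carries factor VIII and tethers platelets. It read 6.45, 6.10 and 5.99 in NZB, against 6.93, 6.59 and 6.79 in SM. The arrays did not overlap, although the highest NZB array came close to the lowest SM array. Vwf fell 1.50-fold in NZB relative to SM (-0.59, SE 0.12, adjusted p = 0.0093), with a difference of -0.49 to -0.72 when 1 array was left out. The lowest NZB reading, 5.99, lay close to the background of 5.67, which limits the fold. Of 13 measured endothelial markers, 4 were higher (Stab2, Pecam1, Fcgr2b and Gpr182), and 2 were lower (Lyve1 and Clec4g). Their median difference was 0.055, beside 0.021 over all genes (8.47% higher and 12.6% lower), and none was at background on all arrays. Summed on the linear scale they reached 8629 to 9505 in NZB and 8071 to 8384 in SM. Without Stab2, left out after its values were seen, the sums of the other 12 overlapped, at 7373 to 8060 in NZB and 7437 to 7700 in SM. The part of endothelial cells in the Vwf values was not tested. Only 2 of the endothelial markers were higher without SM replicate 2 and likewise without NZB replicate 1, without SM replicate 3 and with array medians aligned.

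F3 encodes tissue factor, the membrane receptor of factor VII that starts clotting outside the vessel. It read 6.21, 6.59 and 6.30 in NZB, against 7.07, 6.69 and 6.66 in SM. The highest NZB array lay just under the lowest SM array. F3 fell 1.35-fold in NZB relative to SM (-0.44, SE 0.13, adjusted p = 0.0374). This call ended without NZB replicate 1 or 3 or SM replicate 1 or 2 (adjusted p = 0.117, 0.124, 0.0936 and 0.0613) and with adjustment over all probe sets (0.0519). F7, the liver-made protease that tissue factor binds, differed by -0.096 (SE 0.062, adjusted p = 0.311). F10, the protease at the head of the common pathway, differed by 0.12 (SE 0.070), and F2, prothrombin, by 0.057 (SE 0.058). F5, the cofactor of factor X, read 12.09, 11.76 and 12.02 in NZB against 11.996, 12.23 and 12.15 in SM, with overlapping arrays (-0.17, SE 0.097, adjusted p = 0.262). Its other probe set differed by -0.24 (SE 0.11, adjusted p = 0.170 over all probe sets). Prothrombin and the factors that activate it therefore passed the test in neither direction. F7, F10 and Proz are consecutive protein-coding genes on chromosome 8, with differences of -0.096, 0.12 and -0.066.

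Of the contact system, F12 passed. Factor XII is the protease that activates itself on negatively charged surfaces. It read 11.6, 11.6 and 11.5 in NZB, against 11.9, 11.8 and 11.9 in SM, with no overlap. F12 fell 1.20-fold in NZB relative to SM (-0.26, SE 0.064, adjusted p = 0.0184). The call ended without NZB replicate 2 or 3 (adjusted p = 0.0549 and 0.0741). Kng1, the kininogen from which kallikrein releases bradykinin, had probe sets that differed by 0.10 (SE 0.065, adjusted p = 0.295) and -0.026 (SE 0.062). The kininogen genes Kng1 and Kng2 are close copies that stand side by side, so which of them the Kng1 probe sets read is uncertain. Next to them on chromosome 16 lies Hrg, which encodes histidine-rich glycoprotein, a plasma protein that binds heparin and plasminogen. It read 13.6, 13.5 and 13.5 in NZB against 13.7, 13.7 and 13.7 in SM. Its NZB arrays were all below its SM arrays, with a difference of -0.14 (SE 0.057) that did not pass (adjusted p = 0.111).

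The 3 fibrinogen chain genes lay above SM in NZB by nearly the same amount, short of the threshold. Fga, which encodes the alpha chain, read 14.3, 14.2 and 14.2 in NZB against 14.0, 14.1 and 14.0 in SM. Fgb, for the beta chain, read 14.4, 14.4 and 14.4 in NZB against 14.2, 14.2 and 14.2 in SM. Fgg, for the gamma chain, read 14.2, 14.2 and 14.2 in NZB against 14.0, 14.1 and 14.0 in SM. In each gene every NZB array was above every SM array. The differences were 0.19 (SE 0.062, adjusted p = 0.0619) for Fga, 0.16 (SE 0.057, adjusted p = 0.0815) for Fgb and 0.18 (SE 0.057, adjusted p = 0.0541) for Fgg. All 3 passed with trended and robust variances and with the mean of each gene's probe sets (adjusted p = 0.0214 to 0.0488). Each of the 3 has 1 probe set, so that mean left its values unchanged. Only the other genes in the fit and in the adjustment changed there. After quantile normalization the differences were 0.11, 0.13 and 0.12, and none passed. The readings lie near the top of the scale, whose highest value was 14.9, where saturation can shrink differences. Fgg, Fga and Fgb are consecutive protein-coding genes on chromosome 3, and their promoters are shown because the chains are made together and had like values.
Fgg (chr3:83007474-83007723, plus strand): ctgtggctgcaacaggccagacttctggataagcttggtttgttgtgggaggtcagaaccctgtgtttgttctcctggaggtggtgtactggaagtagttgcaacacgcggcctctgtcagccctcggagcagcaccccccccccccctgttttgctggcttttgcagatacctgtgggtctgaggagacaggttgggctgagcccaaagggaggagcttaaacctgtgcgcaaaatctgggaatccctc
Fga (chr3:83025903-83026152, plus strand): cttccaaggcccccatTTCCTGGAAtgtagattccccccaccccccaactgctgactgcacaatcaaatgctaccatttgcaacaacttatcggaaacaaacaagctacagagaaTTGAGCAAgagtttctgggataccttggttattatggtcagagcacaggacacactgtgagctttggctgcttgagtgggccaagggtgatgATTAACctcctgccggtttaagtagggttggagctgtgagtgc
Fgb (chr3:83049864-83050113, minus strand): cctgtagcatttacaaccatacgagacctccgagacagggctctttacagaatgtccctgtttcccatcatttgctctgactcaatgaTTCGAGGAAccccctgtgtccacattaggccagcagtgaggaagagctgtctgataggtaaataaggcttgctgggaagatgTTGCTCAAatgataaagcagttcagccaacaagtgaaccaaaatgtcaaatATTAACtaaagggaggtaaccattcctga
Fga and Fgb each hold a C/EBP match (135 and 80 bases before the start), a GTTAAT match (43 and 29 bases) and a STAT match (234 and 162 bases). The window of Fgg holds none of the 4 motifs, which says nothing of the factors that act on it.

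Promoter windows were found for 27 of the 35 listed genes. TTGCNNAA was present in 9 of these 27 genes (33.3%), beside 10.8% of all 27025 genes with a window, and CAAAGT in 8 (29.6%), beside 14.1%. GTTAAT was in 4 (14.8%), beside 7.49%, and TTCNNNGAA also in 4 (14.8%), beside 8.13%. Where a gene had several windows, a match in any counted, and these shares are descriptions of letters only.

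F13a1 encodes the A chain of factor XIII, the transglutaminase that cross-links fibrin. It read 5.46, 5.59 and 5.60 in NZB and 5.35, 5.28 and 5.25 in SM, all under the background of 5.67, so no fold is given. Its difference of 0.26 (SE 0.066) passed (adjusted p = 0.0231), but not without NZB replicate 2 or 3 or SM replicate 2 or 3 (adjusted p = 0.0543 to 0.0872). Markers of the cells that make the A chain were also read, beside 8.47% higher and 12.6% lower over all genes. Counts for B, T and NK cell markers are given below. Of 10 measured macrophage markers, 6 were higher and 1 lower, Marco (median 0.37), with none at background, and their linear sum was 8760 to 10145 in NZB and 6679 to 7419 in SM. Of 9 measured megakaryocyte and platelet markers, 4 were higher and 0 lower (median 0.16), with Ppbp, 1 of the 4, at background on all arrays, and their linear sum was 1239 to 1301 in NZB and 1099 to 1137 in SM. The platelet markers higher numbered 1 without SM replicate 2 and 2 without any single NZB array, without SM replicate 3 or with array medians aligned. The part of these cells in the F13a1 values was not tested. F13b, the carrier chain of factor XIII that hepatocytes make, differed by 0.043 (SE 0.068, 95% interval -0.11 to 0.20).

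**Figure D2:**
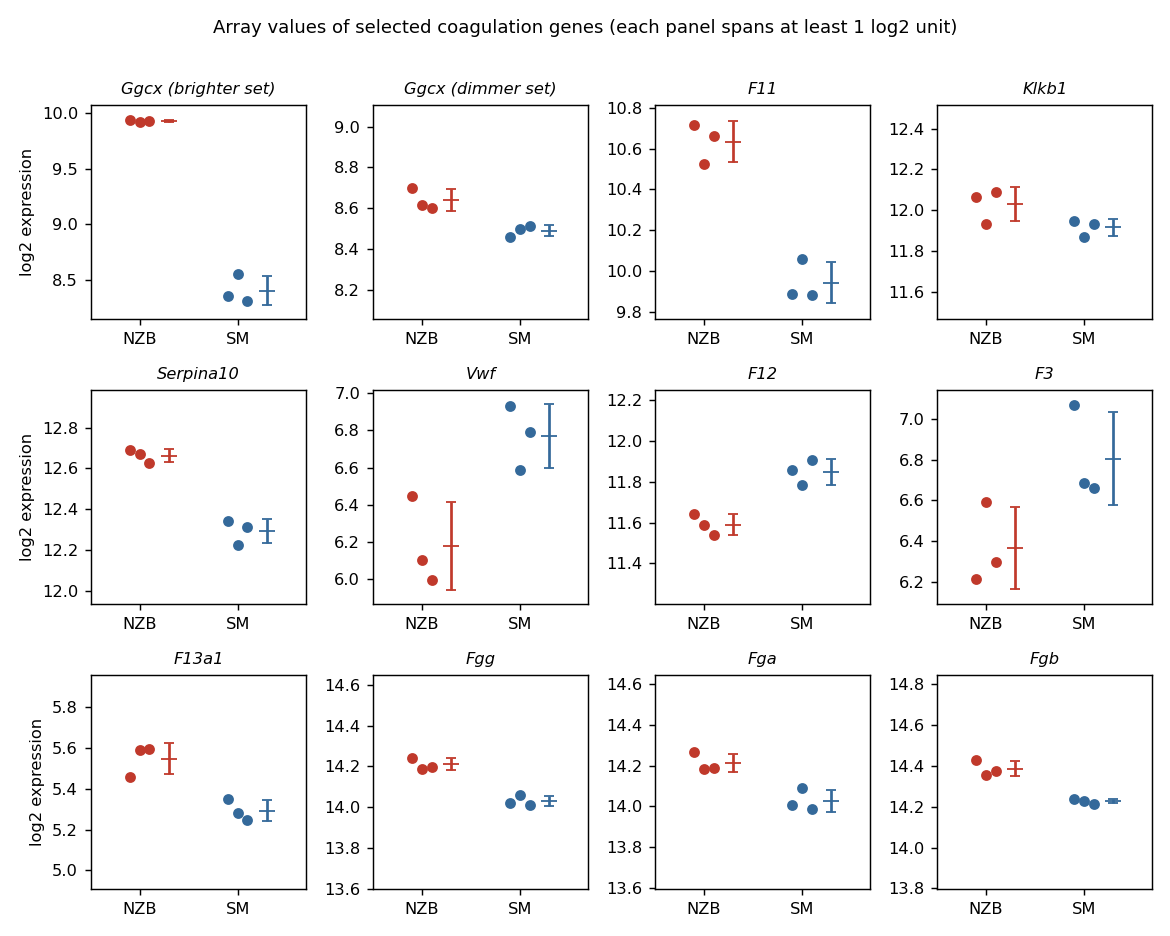
Log2 expression on each array for 11 of the genes, with both probe sets of Ggcx. Points are single mice (NZB left, SM right), bars beside them are the mean ± SD (n = 3), and panels have their own axes of at least 1 log2 unit. The strains overlap in Klkb1 only, and Ggcx is far apart in its brighter probe set (9.93 in NZB and 8.40 in SM on average) but not in its dimmer one.

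Among the anticoagulants, Serpina10 passed. It encodes the protein Z-dependent protease inhibitor, which blocks factor Xa. It read 12.7, 12.7 and 12.6 in NZB, against 12.3, 12.2 and 12.3 in SM. The lowest NZB array was above the highest SM array by more than the range of either strain, and the gene was 1.29-fold higher in NZB (0.37, SE 0.061, adjusted p = 0.0029). It stayed past the threshold in all 13 settings that measured it, and its only probe set is of a kind that may also bind other transcripts. Proz encodes protein Z, the Gla protein that brings this inhibitor to factor Xa, and its probe sets disagreed. The brighter one read 11.4, 11.2 and 11.1 in NZB against 11.2, 11.3 and 11.4 in SM, with overlap (-0.066, SE 0.083, adjusted p = 0.622). The dimmer one read 10.7, 10.8 and 10.7 in NZB against 9.94, 10.4 and 10.4 in SM and was higher in NZB (0.46, SE 0.12, adjusted p = 0.0355 over all probe sets). SM replicate 1 was the lowest of these arrays, and without it the difference was 0.30 (adjusted p = 0.0210). Without NZB replicate 1, 2 or 3 the dimmer set no longer passed (0.0817, 0.102 and 0.103). The brighter set's difference minus the dimmer set's was -0.53 (exact permutation test, two-sided p = 0.1, again the smallest possible, for sets chosen after their values were seen).

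The other serpins of plasma did not pass. Serpinc1, which encodes antithrombin, read 13.7, 13.6 and 13.7 in NZB against 13.6, 13.5 and 13.5 in SM. Its strains did not overlap (0.14, SE 0.059, adjusted p = 0.117). Serpind1, for heparin cofactor II, differed by 0.068 (SE 0.056, adjusted p = 0.435). Serpina5, for the protein C inhibitor, lay under background on all 6 arrays (0.15, SE 0.065, adjusted p = 0.127).

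Of the listed members of the protein C pathway none passed. Procr, for the protein C receptor, is no member of the group and was higher in NZB (0.28, SE 0.068, adjusted p = 0.0196). Its probe set is of a kind that may also bind other transcripts. Proc, for the protease that inactivates factors Va and VIIIa, read 12.7, 12.6 and 12.6 in NZB against 12.4, 12.4 and 12.5 in SM. The arrays were separate but the difference of 0.18 (SE 0.068) did not pass (adjusted p = 0.0995). Pros1, for its cofactor protein S, differed by -0.14 (SE 0.092, adjusted p = 0.334). Thbd, for the endothelial receptor thrombomodulin, was under background on 5 of the 6 arrays (-0.076, SE 0.12, adjusted p = 0.704). Tfpi encodes tissue factor pathway inhibitor and has 4 probe sets. The brightest read 7.46, 7.46 and 7.43 in NZB against 7.32, 7.39 and 7.39 in SM (0.085, SE 0.058, adjusted p = 0.334). The second brightest read 6.81, 6.66 and 6.61 in NZB against 7.14, 6.98 and 7.07 in SM and was lower in NZB (-0.37, SE 0.075, adjusted p = 0.0116 over all probe sets). That call ended without NZB replicate 3 (0.0538), and the remaining Tfpi sets differed by -0.023 and -0.23 and did not pass. The brightest set was thus separated upwards and the second downwards. Their differences lay 0.45 apart (exact permutation test, two-sided p = 0.1, again the smallest possible, for sets chosen after their values were seen).

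**Figure D3:**
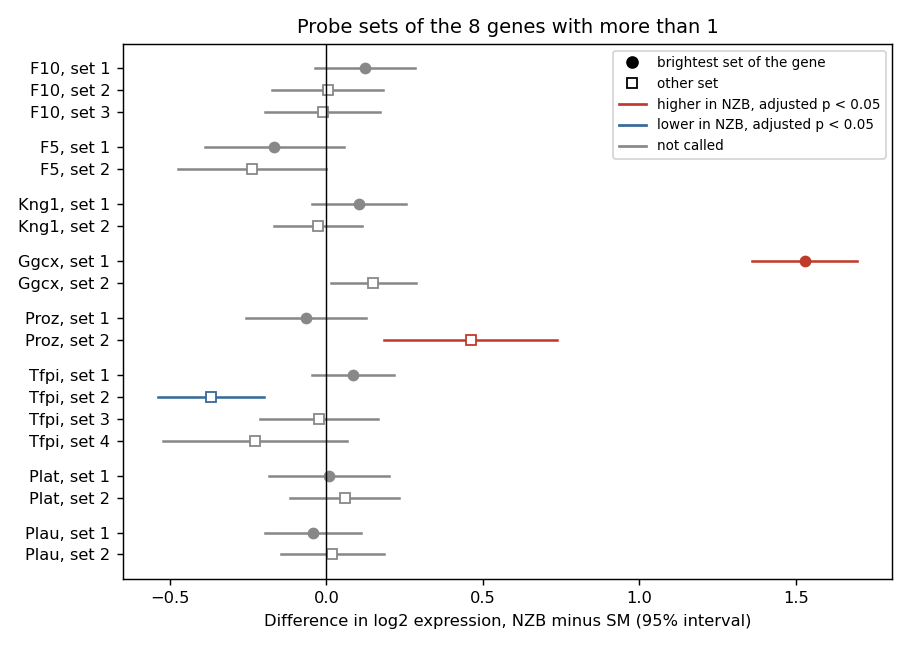
Difference in log2 expression, NZB minus SM, for the 19 probe sets of the 8 genes with more than 1, ordered by brightness within a gene. Points are limma estimates over all probe sets and lines their 95% intervals. Ggcx (1.53 and 0.15), Proz (-0.066 and 0.46) and Tfpi (0.085 and -0.37) have sets that differ in size or sign.

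Over all 44 probe sets, 5 were higher and 3 were lower, which is 18.2%, beside 14.8% of all probe sets (6.09% higher and 8.69% lower). The strains did not overlap in a share of all probe sets of 34.3%, which is the background for the separations named above. Without NZB replicate 2 the calls among the 44 numbered 5, and without NZB replicate 3 they numbered 3. Of the 8 genes with several probe sets, 3 had sets with different calls (Ggcx, Proz and Tfpi), and F5, F10, Kng1, Plat and Plau had none called.

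The measured fibrinolysis members of the group showed no difference past the test. Outside the group, Anxa2 (0.35, SE 0.094, adjusted p = 0.0278) and Habp2 (0.57, SE 0.10, adjusted p = 0.0041), which also bear on fibrinolysis, were higher in NZB. Plaur (0.16, adjusted p = 0.124) and S100a10 (-0.28, adjusted p = 0.121) did not pass. Plg, which encodes plasminogen, read 14.1, 14.1 and 14.1 in NZB against 14.0, 14.1 and 14.1 in SM, with overlap (0.015, SE 0.059, 95% interval -0.12 to 0.15). Its plasma inhibitor gene Serpinf2, for alpha-2-antiplasmin, differed by 0.089 (SE 0.060, adjusted p = 0.330). The activators of plasminogen, Plat (tissue type) and Plau (urokinase), differed by 0.0081 (SE 0.084) and -0.042 (SE 0.067). Both read close to background, with means of 5.94 in NZB and 5.93 in SM for Plat and of 5.90 in NZB and 5.95 in SM for Plau.

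Further genes of haemostasis outside the group were also read. They numbered 39 measured, with 12 higher in NZB, 4 lower and a median difference of 0.064. These figures include Proser1 (-0.18, not called), which is no haemostasis gene, and Stab2, which is counted among the endothelial markers as well. Over all genes 8.47% were higher and 12.6% lower, with a median difference of 0.021. Bdkrb2, F2rl3, Fgl2, Serpinb2 and Thbs1, 5 of the 39, lay at or under background on all arrays. Fgl1, which encodes a fibrinogen relative that hepatocytes secrete, was 2.11-fold higher (1.08, SE 0.065), and Tfpi2, a relative of Tfpi, was 2.40-fold higher (1.26, SE 0.12). Stab2, a scavenger receptor of sinusoidal endothelium, was 1.96-fold higher (0.97, SE 0.14). Lower were Asgr2, a chain of the asialoglycoprotein receptor (1.47-fold; -0.56, SE 0.076), Hgfac, a serine protease related to factor XII (1.46-fold; -0.54, SE 0.081), and Vkorc1l1. The higher genes numbered 7 without SM replicate 2 and 7 without NZB replicate 3, and 8 without NZB replicate 1.

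Among 16 measured transcription factors of hepatocyte genes, 4 were lower in NZB and 0 higher (1 without NZB replicate 3), with a median of -0.13. Beside this list and those below stand 8.47% higher and 12.6% lower over all genes, with a median of 0.021. Dbp, a clock-driven factor, was 5.29-fold lower (-2.40, SE 0.44), Cebpb 2.54-fold lower (-1.34, SE 0.13) and Hnf4a 1.31-fold lower (-0.38, SE 0.084). The NZB readings of Dbp spread widely, at 7.92, 10.2 and 9.11, against 11.3, 11.5 and 11.6 in SM, which limits its fold. Of 18 genes of the acute phase and the interleukin-6 response, to which the fibrinogen chains belong by their known control, 9 were higher and 1 lower (median 0.27). This list includes signalling genes, of which Socs3 (0.47) and Il6st (0.27) are among the 9 higher and Il6ra is the 1 lower. Orm1 was 7.68-fold higher (2.94, SE 0.34), Orm2 2.70-fold (1.43, SE 0.20) and Apcs 2.42-fold (1.28, SE 0.096), and the receptor gene Il6ra was 1.88-fold lower (-0.91, SE 0.16). The 8 not called were Saa2 (0.38), Saa1 (0.36), Itih4 (0.16), Lbp (0.13), Crp (0.12), Hp (0.029), Saa4 (-0.12) and Lcn2 (-0.32). The part of this response in the fibrinogen values was not tested. Without SM replicate 2, NZB replicate 2 or NZB replicate 3, 6 genes of the acute phase list were higher. In the same list 2 were lower without NZB replicate 1, without SM replicate 3 or with array weights. The Orm genes have close copies, so the member read is uncertain. The remaining cell type lists showed 5 of 7 B and plasma cell markers, 4 of 6 T and NK cell markers, 0 of 10 stellate cell markers, 0 of 5 cholangiocyte markers and 0 of 4 erythroid markers higher in NZB, and 0, 0, 1, 0 and 1 of them lower. The T and NK cell count was 2 without any single array other than NZB replicate 3 or SM replicate 3, and 3 stellate markers were higher without SM replicate 1 or with array weights. Without NZB replicate 1 or 3, 0 erythroid markers were lower. Ighm, the immunoglobulin heavy chain of early B cells and plasma cells, was 20.3-fold higher in NZB (4.35, SE 0.21), and the part of these cells in the coagulation values was not tested.

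Across settings, the calls of Ggcx, F11, Serpina10 and Vwf were kept wherever the gene was measured, while those of F12, F13a1 and F3 each ended in at least 2 settings. For Ggcx these settings used the brighter probe set or the mean of its sets. None used the dimmer set alone, which did not pass (limma adjusted p = 0.137 over all probe sets), so they do not bear on the disagreement of the sets. Without SM replicate 2, the differences were 1.60 for Ggcx, 0.75 for F11, 0.34 for Serpina10, -0.68 for Vwf and -0.29 for F12, all past the threshold. In the same setting F13a1 differed by 0.25 (adjusted p = 0.0757) and F3 by -0.50 (adjusted p = 0.0613).

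**Figure D4:**
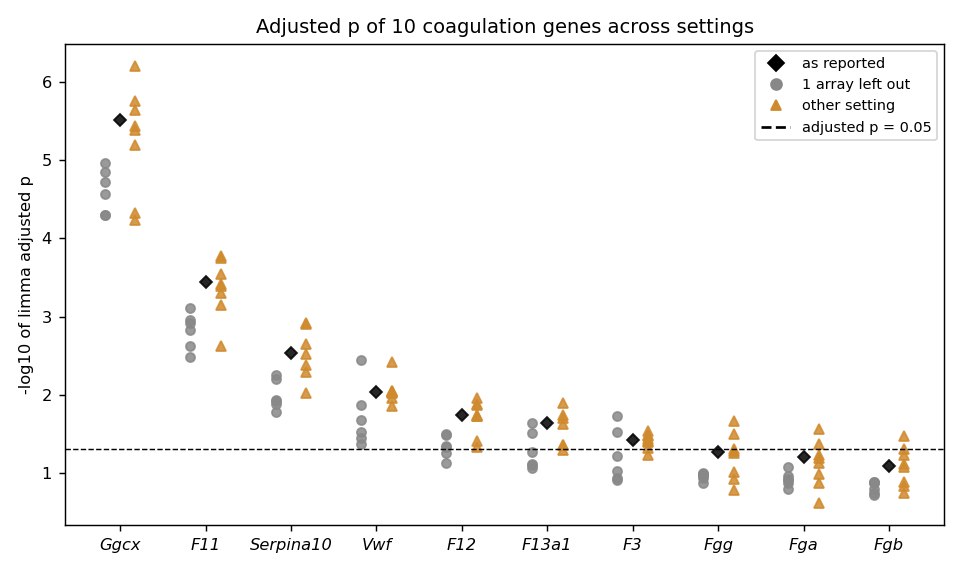
Negative log10 of the limma adjusted p of 10 genes as reported (black diamonds), with 1 array left out (grey circles) and under the other settings (orange triangles). The dashed line is the threshold of 0.05. Ggcx, F11, Serpina10 and Vwf are above it everywhere, F12, F13a1 and F3 straddle it, and the fibrinogen genes pass in 2 or 3 settings each. No setting shown used the dimmer Ggcx probe set alone.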

How the data were processed

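Liver RNA was hybridized to 1 single-color array per mouse, 3 NZB and 3 SM, which the titles call biological replicates. The deposited series table holds 45037 probe sets on 6 arrays, and each column belongs to a mouse. The authors made the deposited values with RMA, per the submitters' processing notes (its version is not given in the sources used here). Deposited values were read as log2 because their maximum, 14.9, is too high for natural logs and low enough for log2 of a 16-bit scanner. No further normalization was applied.

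Symbols came from the platform annotation, updated by Entrez ID through RefSeq (GRCm38.p6). That table gave names and gene order only. Of the probe sets 34945 had 1 gene, 932 several and 9160 none. The brightest probe set by mean over all arrays stood for a gene.

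Differences were tested in limma 3.58.1 (R 4.3.3; lmFit, eBayes, two-sided), over 18193 genes and again over all probe sets. The fit was tested on simulated data. The number of arrays limits the precision. The members, lists and promoter motifs were chosen with earlier results of these data known. All measured members are named, and of other lists up to 3 genes per direction, plus those that complete small counts. Also named are the further haemostasis genes at background and the acute phase genes not called. Procr, Anxa2, Habp2, Plaur, S100a10, Proser1, Socs3 and Il6st are named besides, to limit statements about their lists. Alternatives were aligned array medians, quantile normalization, the mean of a gene's probe sets, removal of dim or cross-hybridizing sets, trended and robust variances, array weights, the replicate block and leaving out each array. The p-values measure the spread between these mice. Strain variants under the probes were not analysed here.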

Additional observations from a re-analysis of the deposited data

How the results depend on the processing

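With 1 array left out, the ranges of calls were 2377 to 3856 genes (867 to 1443 higher, 1480 to 2413 lower), 3741 to 6386 probe sets (1482 to 2482 higher, 2259 to 3904 lower), 4 to 6 coagulation genes (3 to 4 higher, 1 to 3 lower) and 3 to 7 of their probe sets (3 to 5 higher, 0 to 3 lower). Higher coagulation genes numbered 7 with the mean of all probe sets and 7 with trended and robust variances, where the fibrinogen genes passed, and their higher probe sets then numbered 8. The share of all calls that were higher was 40.3%, but 30.3% with array medians aligned and 47.5% after quantile normalization. Sign changes touched uncalled differences that lay near 0 as reported. Aligning medians moved all differences down by the same amount, and the median over all genes went from 0.021 to -0.012. The mean of probe sets took in the Proz and Tfpi sets that differ from the brightest. The cause of the other sign changes was not tested. With medians aligned F8, Plg and Plat differed by -0.027, -0.017 and -0.024, after quantile normalization Plg and Plat by -0.049 and -0.035, with array weights F8 by -5.2e-05, and with the mean of probe sets Proz by 0.20 and Tfpi by -0.13. With 1 array left out, the ranges that crossed 0 were -0.021 to 0.024 for F8, -0.0092 to 0.079 for F13b, -0.14 to 0.0037 for Proz, -0.23 to 0.026 for Thbd, -0.015 to 0.032 for Plg, -0.075 to 0.075 for Plat and -0.087 to 0.00040 for Plau. Same-numbered NZB and SM arrays had residual correlations of 0.040, -0.072 and 0.050, beside -0.11 to 0.085 for differently numbered ones. The numbers were not treated as pairs, though these few correlations cannot exclude a pairing. With the replicate number as a block, 3436 genes were called (1331 higher, 2105 lower), with 3 coagulation genes higher and 2 lower. F13a1 and F3 did not pass there (adjusted p = 0.0511 and 0.0596). Dim readings limit F13a1, Serpina5, Thbd, Plat and Plau. The NZB readings of Vwf, down to 5.99, and of F3, down to 6.21, were also not far above the background of 5.67.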
